A study of Mus musculus with 24 samples.

Results

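The 52 genes described here encode proteins that copy DNA and supply its building blocks. They were taken as a fixed list of symbols, chosen with earlier results of these data known. They are 52 of the 32040 genes in the deposited tables, and all 52 were among the 16190 genes with enough counts to be tested. RNA was sequenced from sorted supporting cells of mouse fetal gonads, the cells that surround the germ cells, in 24 libraries of about 40000 cells each. Pre-granulosa cells of XX embryos carried the transgene Tg(Enh8-mCherry), and Sertoli cells of XY embryos carried SOX9-IRES-GFP, so chromosomal sex, mouse line and fluorescent reporter change together and cannot be told apart. Each sex was sampled on 4 embryonic days, from E11.5 through E12.5 and E13.5 to E15.5, with 3 libraries in each of the 8 groups. Cells were collected by their reporter, so a group holds the cells in which that reporter was active at that stage. One of the XX E13.5 libraries, replicate 1, has E12.5 in another field of its label and was kept at E13.5, the stage in its title.

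DNA replication starts at origins, where the origin recognition complex together with Cdc6 and Cdt1 loads the ring-shaped MCM2-7 helicase. Kinases, Mcm10, Cdc45 and the GINS complex then turn the loaded ring into a moving helicase, and DNA polymerases follow with the sliding clamp Pcna, its loader and the single-strand binding protein RPA. Many of these genes are known targets of E2F transcription factors and are transcribed as cells enter S phase, so their RNA is widely used as a sign of proliferation. In the fetal ovary pre-granulosa cells are known to leave the cell cycle as they differentiate, while Sertoli cells of the fetal testis go on dividing.

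Because the members move together, their promoters are shown for the words that E2F proteins are known to bind. The search covered 250 bases before to 50 bases after each annotated start in RefSeq (GRCm38.p6), and 43 of the 52 members matched a window. The words TTTCCCGC, TTTCGCGC, TTTGCCGC and TTTGGCGC were searched as exact letters on both strands. At least 1 of these words was present in 16 of the 43 members (37.2%), against 2.26% of all 32851 windows of the same length and 4.39% of the 12425 tested genes with a window. The shorter cores, which are those words without their first T, were present in 27 of 43 (62.8%) against 9.57% of all windows and 18.4% of the tested genes. The other searched words were CCAAT, found in 25 of 43 members (58.1%) against 37.4% of all windows and 42.8% of the tested genes, GGGCGG, found in 34 (79.1%) against 35.7% and 65.0%, and TTTGAA, found in 5 (11.6%) against 17.9% and 14.6%. These are matches of letters, and no binding was measured. Ccne1, whose RNA was higher in XX at E15.5, was among the 27 members with a window but none of the 8-letter words. Mcm10, Mcm2 and Tk1 also had none and were lower in XX. Whether a word goes with the direction was not tested. The 250 bases before the start are printed for 4 members with a word and for Ccne1. They lie at chr8:75109259-75109508 (plus strand), chr1:128359706-128359955 (minus strand), chr11:98907901-98908150 (plus strand), chr4:108579204-108579453 (plus strand) and chr7:38107491-38107740 (minus strand). Capitals mark the 8-letter words, and the longer capital runs in Mcm5 and Mcm6 are words on opposite strands that overlap.
Mcm5: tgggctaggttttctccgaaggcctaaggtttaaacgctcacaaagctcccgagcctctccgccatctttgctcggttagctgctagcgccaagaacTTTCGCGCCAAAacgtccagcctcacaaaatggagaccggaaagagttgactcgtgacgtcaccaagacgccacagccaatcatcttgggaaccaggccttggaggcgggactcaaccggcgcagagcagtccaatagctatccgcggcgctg
Mcm6: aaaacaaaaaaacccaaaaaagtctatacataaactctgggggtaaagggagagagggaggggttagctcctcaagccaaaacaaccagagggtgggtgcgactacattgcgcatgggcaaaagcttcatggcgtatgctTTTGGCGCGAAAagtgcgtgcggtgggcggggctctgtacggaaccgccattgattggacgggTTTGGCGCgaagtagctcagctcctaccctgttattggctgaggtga
Cdc6: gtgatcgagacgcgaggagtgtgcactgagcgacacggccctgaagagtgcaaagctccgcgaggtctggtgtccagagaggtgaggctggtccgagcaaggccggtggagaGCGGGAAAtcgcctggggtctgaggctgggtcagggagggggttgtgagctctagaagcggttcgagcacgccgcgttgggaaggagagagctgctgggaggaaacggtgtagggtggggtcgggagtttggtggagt
Orc1: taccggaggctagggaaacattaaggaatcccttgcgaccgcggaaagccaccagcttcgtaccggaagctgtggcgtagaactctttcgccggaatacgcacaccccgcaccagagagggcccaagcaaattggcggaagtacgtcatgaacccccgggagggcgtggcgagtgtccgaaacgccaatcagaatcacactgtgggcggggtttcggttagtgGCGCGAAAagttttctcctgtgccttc
Ccne1: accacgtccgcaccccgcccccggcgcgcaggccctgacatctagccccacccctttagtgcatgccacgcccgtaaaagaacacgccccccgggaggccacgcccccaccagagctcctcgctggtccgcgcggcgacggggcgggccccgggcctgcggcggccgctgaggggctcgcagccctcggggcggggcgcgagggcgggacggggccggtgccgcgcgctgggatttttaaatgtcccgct

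Library totals ranged from 11275277 to 37256871 counts, and 3 counts corresponded to between 0.0774 and 0.26 CPM (counts scaled to a common library total), far below the levels of the members. The deposited labels do not say whether the 3 libraries of a group came from separate animals, so p-values measure only the spread between these libraries. Summed markers of Sertoli cells (8 genes) were 1477 to 8826 CPM in XY libraries and 73.7 to 319 in XX libraries. Summed markers of pre-granulosa cells (8 genes) were 511 to 1568 CPM in XX and 6.94 to 159 in XY. Both were in the direction of the labels. Within XX E11.5 the pre-granulosa markers summed to 622, 1136.5 and 511 CPM in replicates 1, 2 and 3. Foxl2 was at 2.62, 35.2 and 4.73 CPM, Irx3 at 15.3, 154 and 6.42 CPM and Fst at 135, 479 and 109 CPM. Wnt4 and Rspo1 were also highest in replicate 2, whereas Runx1, Lhx9 and Bmp2 were not. The 3 XX E11.5 libraries stood apart in markers of other cells: summed erythroid markers were 10313, 3197 and 25622 CPM in replicates 1, 2 and 3, with 7 of the 7 listed genes in the table at 1 CPM or more, against 10.49 to 22.6 CPM in XY E11.5 and 512 to 1193 CPM in XX E12.5. Summed immune markers were 112 to 344 CPM in XX E11.5, with 7 of 7 genes at 1 CPM or more, and 0.245 to 1.59 CPM in XY E11.5, where none reached 1 CPM and Cd53 was listed at 0. The counts of members called that rest on XX E11.5, and the named values from it, are therefore also given without replicates 1 and 3, which leaves 1 library in that group, assumed to vary like the other groups.

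At E15.5 most of the machinery was lower in pre-granulosa cells than in Sertoli cells. Of the 52 members, 46 were higher in XY, where 34.4% of all tested genes were higher in XY, and 4 were higher in XX, where 34.9% of all tested genes were higher in XX (edgeR quasi-likelihood test, Benjamini-Hochberg adjusted p under 0.05). The median difference was -1.12 on the log2 scale, against 0.05 over all tested genes. The 4 genes higher in XX were Ccne1, Orc4, Rpa3 and Orc5, and the 2 that did not pass were Rfc1 and Ccne2. In these bulk samples, fewer replicating cells and less RNA per cell cannot be told apart.

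**Figure D1:**
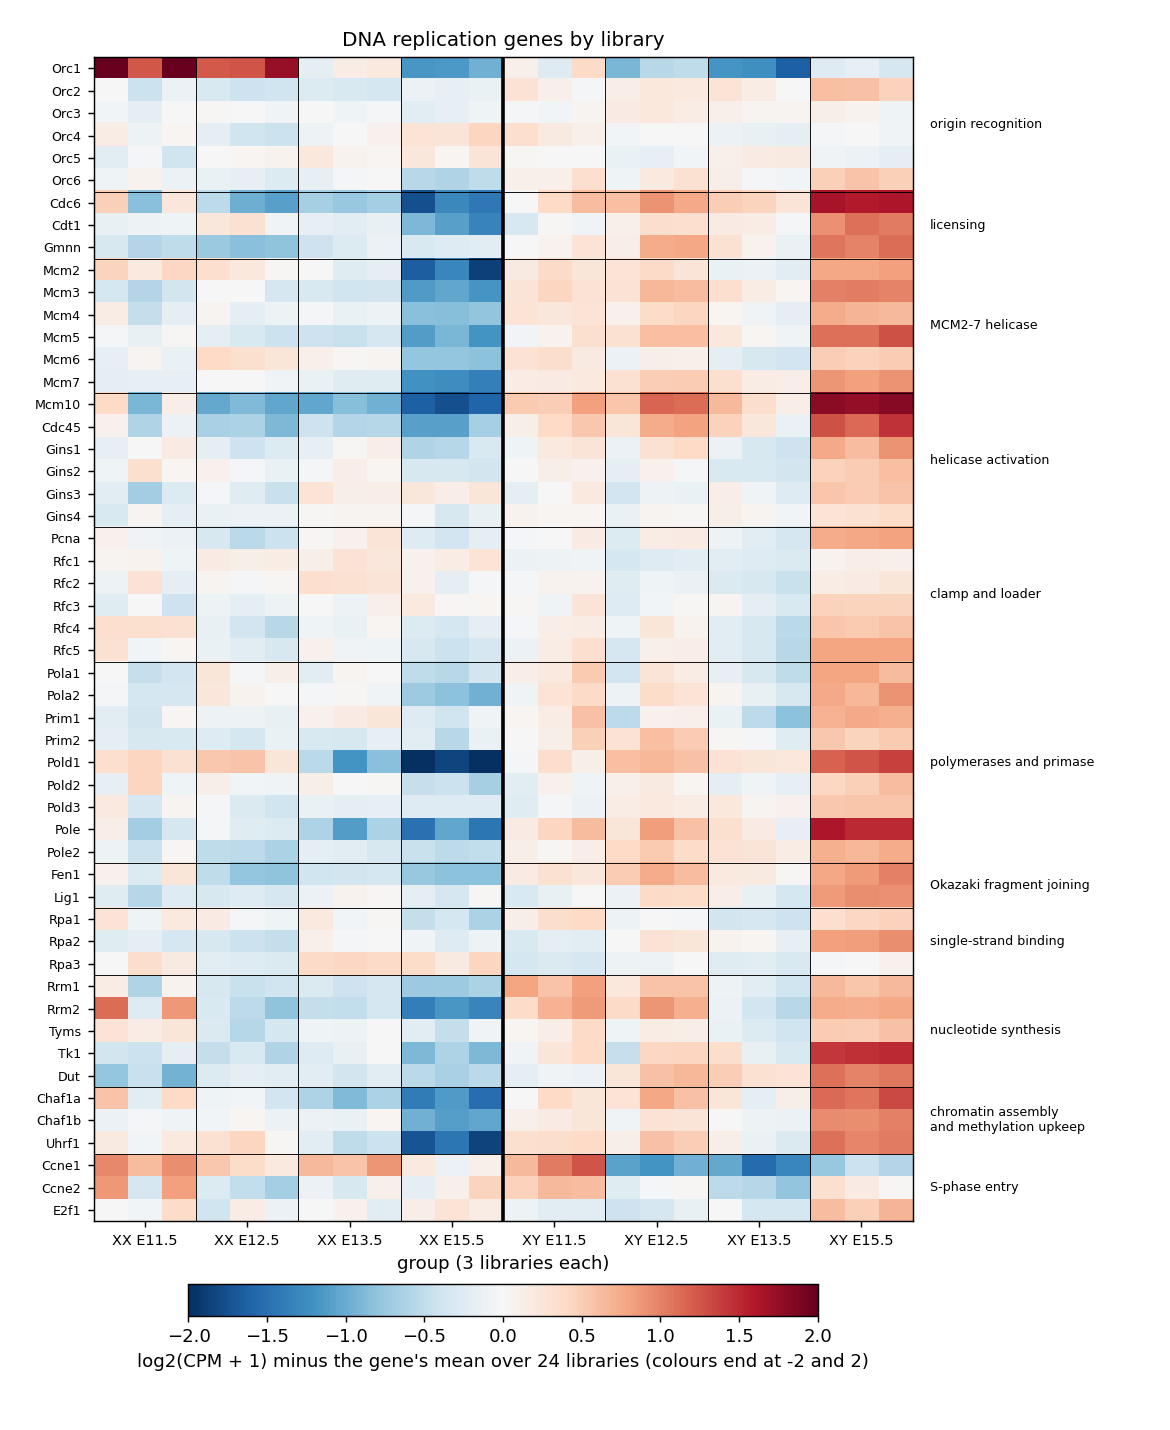
Level of each of the 52 members (rows, grouped by role) in each of the 24 libraries (columns, 3 in each group), as log2(CPM + 1) minus the mean of that gene over all libraries. Red is above and blue below the gene's mean. The 3 XY E15.5 columns are red for most genes and the 3 XX E15.5 columns are blue. Orc1 and, in XY, Ccne1 follow other courses.

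Licensing genes and the helicase showed the difference in every member. Cdc6, which helps to load the MCM ring, was at 7.99, 11.4 and 10.2 CPM in the XX E15.5 libraries and at 94.0, 89.8 and 92.2 CPM in XY. The groups did not overlap, and the log2 difference was -3.21 ± 0.26 (SE, n = 3 per group; edgeR adjusted p = 5.22e-10). Cdt1, the other loading factor, averaged 13.8 CPM in XX and 63.0 CPM in XY, a log2 difference of -2.20 ± 0.13 (edgeR adjusted p = 3.75e-12). Geminin (Gmnn), the inhibitor of Cdt1, was also lower in XX, at 28.8 against 73.2 CPM, with a smaller log2 difference of -1.34 ± 0.15 (edgeR adjusted p = 4.67e-08).

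All 6 subunits of the MCM2-7 ring were lower in XX at E15.5, with log2 differences from -2.39 to -1.28. Mcm2 was at 68.3, 86.8 and 58.4 CPM in XX and at 367, 369 and 382 CPM in XY, without overlap (log2 difference -2.39 ± 0.12, edgeR adjusted p = 3.17e-13). Mcm5 was at 57.6, 66.1 and 54.3 CPM in XX, compared with 271, 269.8 and 306 CPM in XY (log2 difference -2.25 ± 0.12, edgeR adjusted p = 4.42e-13). Mcm6 had the smallest difference of the ring, with 218, 219 and 211 CPM in XX, compared with 526, 514 and 529.8 CPM in XY (log2 difference -1.28 ± 0.08, edgeR adjusted p = 2.03e-11). Whether the subunits differed from each other in the size of the difference was not tested.

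Among the factors that activate the helicase, all 6 were lower in XX. Mcm10, which binds the loaded ring and is needed for its activation, had the largest log2 difference of all members at this stage. It was at 5.21, 4.73 and 5.39 CPM in XX and at 66.4, 64.7 and 67.5 CPM in XY, a log2 difference of -3.69 ± 0.26 (edgeR adjusted p = 7.28e-11). The partner genes of the GINS complex differed less, from Gins1 at -1.32 to Gins3 at -0.36 on the log2 scale.

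All 9 polymerase and primase genes were lower in XX, with log2 differences from -3.56 to -0.81. Pold1, the catalytic subunit of polymerase delta, was at 15.45, 20.46 and 11.05 CPM in XX, compared with 172, 182 and 195 CPM in XY (log2 difference -3.56 ± 0.18, edgeR adjusted p = 3.99e-13). Pole, the catalytic subunit of polymerase epsilon, averaged 10.7 CPM in XX, compared with 82.6 CPM in XY (log2 difference -2.95 ± 0.22, edgeR adjusted p = 1.47e-10). Their accessory subunits differed less: the log2 difference was -1.04 for Pold2, -0.81 for Pold3 and -1.25 for Pole2, and all 3 passed the test.

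The clamp Pcna averaged 115 CPM in XX and 239 CPM in XY, a log2 difference of -1.05 ± 0.11 (edgeR adjusted p = 2.31e-08). Of its loader, Rfc2, Rfc3, Rfc4 and Rfc5 were lower in XX by log2 differences from -0.23 to -1.17, and Rfc1, the large subunit, was at 138, 144 and 156 CPM in XX and at 136, 142 and 139 CPM in XY, which overlap. Fen1, the nuclease that trims Okazaki fragments, averaged 74.2 CPM in XX, compared with 241 CPM in XY (log2 difference -1.70 ± 0.11, edgeR adjusted p = 2.23e-11). Of the RPA trimer, Rpa2 was lower in XX with a log2 difference of -1.01 ± 0.09 (edgeR adjusted p = 3.41e-09). Rpa3, the smallest subunit, went the other way, with 80.6, 70.4 and 83.9 CPM in XX, compared with 60.7, 62.6 and 65.7 CPM in XY (log2 difference 0.31 ± 0.09, edgeR adjusted p = 0.00252).

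All 5 genes of nucleotide synthesis were lower in XX. Tk1, the cytosolic thymidine kinase, was at 16.1, 19.7 and 16.1 CPM in XX, compared with 84.3, 86.8 and 89.0 CPM in XY (log2 difference -2.32 ± 0.21, edgeR adjusted p = 2.30e-09). Rrm2, the regulatory subunit of ribonucleotide reductase, averaged 59.2 CPM in XX, compared with 246 CPM in XY (log2 difference -2.05 ± 0.24, edgeR adjusted p = 1.90e-07). The genes that rebuild chromatin and DNA methylation behind the fork were lower as well. Uhrf1, which guides maintenance methylation, was at 25.2, 31.0 and 23.1 CPM in XX, compared with 186, 170.5 and 177 CPM in XY (log2 difference -2.75 ± 0.15, edgeR adjusted p = 8.56e-13). Chaf1a, the large subunit of the histone chaperone CAF-1, averaged 19.8 CPM in XX, compared with 118 CPM in XY (log2 difference -2.58 ± 0.19, edgeR adjusted p = 1.13e-10).

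Origin recognition and S-phase entry genes were mixed. Orc2, Orc3, Orc6 and Orc1 were lower in XX, whereas Orc4 and Orc5 were higher by log2 differences of 0.36 ± 0.09 (edgeR adjusted p = 8.89e-04) and 0.31 ± 0.09 (edgeR adjusted p = 0.00326). Orc4 shares exon sequence with Acvr2a and Mbd5, and Orc5 with Gm15421, and strand use in counting is not stated, so reads of these partners cannot be told apart. Ccne1, the cyclin E1 gene that drives entry into S phase, was at 21.5, 17.1 and 20.1 CPM in XX, compared with 10.7, 13.7 and 12.2 CPM in XY (log2 difference 0.68 ± 0.17, edgeR adjusted p = 0.00127). Its paralogue Ccne2, the cyclin E2 gene, overlapped, at 31.9, 39.0 and 49.98 CPM in XX and 45.9, 41.1 and 37.1 CPM in XY.

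**Figure D2:**
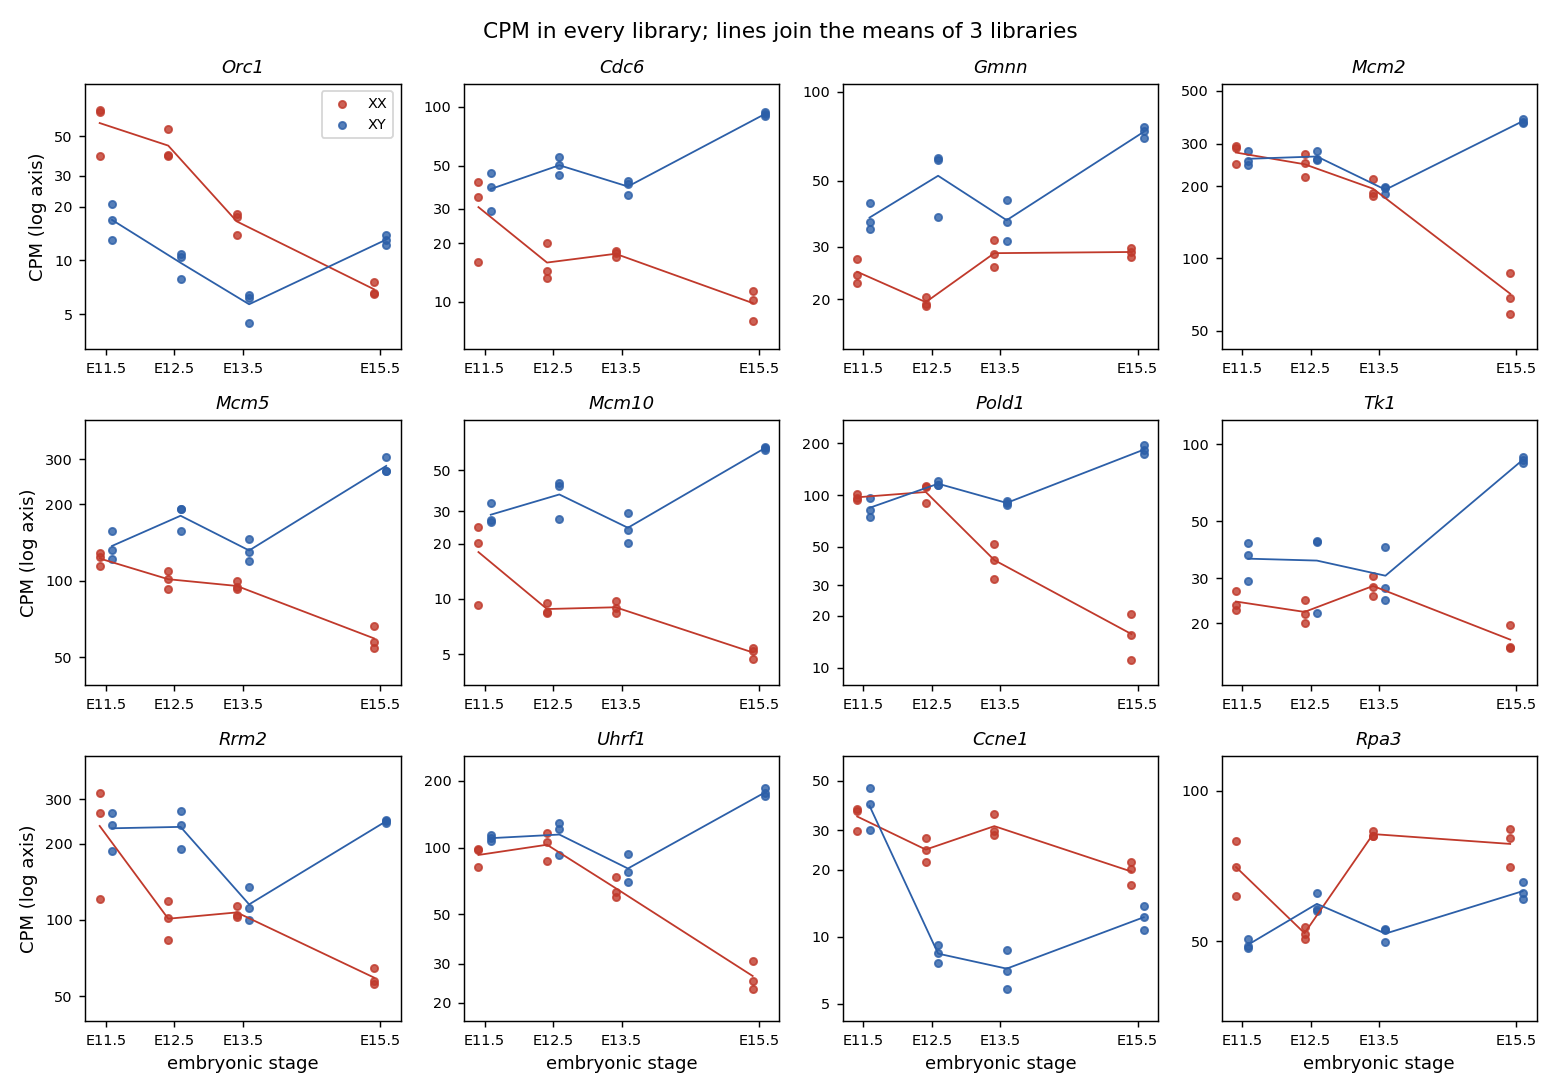
CPM (log axis) of 12 members in every library by embryonic stage, XX in red and XY in blue, with lines through the means of 3 libraries. Cdc6, Mcm2, Mcm10, Pold1 and Tk1 separate most at E15.5; Orc1 is higher in XX until E13.5, and Ccne1 and Rpa3 are higher in XX at E13.5 and E15.5.

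Markers of other cells also differed at E15.5, and their part in these differences was not tested. Summed germ cell markers were 111 to 178 CPM in XX, with 7 of 9 genes at 1 CPM or more, and 53.7 to 87.5 CPM in XY, with 8 of 9 at 1 CPM or more and Stra8 listed at 0. Summed markers of the surface epithelium were 462 to 476 CPM in XX (4 of 4 genes at 1 CPM or more) and 3.54 to 4.43 CPM in XY (1 of 4), and summed interstitial and stromal markers were 399 to 563 CPM in XX and 123 to 159 CPM in XY (6 of 6 genes in each). Summed immune markers were 24.3 to 31.1 CPM in XX (7 of 7 genes at 1 CPM or more) and 0.443 to 0.954 CPM in XY (0 of 7, with Ptprc listed at 0). Summed steroidogenic markers were 293 to 322 CPM in XX (3 of 5) and 60.1 to 102 CPM in XY (5 of 5), erythroid markers 195 to 256 CPM in XX (6 of 7) and 89.4 to 115 CPM in XY (3 of 7), and endothelial markers 40.3 to 45.0 CPM in XX (4 of 6) and 25.2 to 26.5 CPM in XY (3 of 6).

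The median XX minus XY difference of the members was -0.0 at E13.5 and -1.12 at E15.5 on the log2 scale. Some members, such as Pold1 and Mcm10, already differed at E13.5. Members changed in each sex over the step from E13.5 to E15.5. In XY, 49 of the 52 members rose, where 11.51% of all tested genes rose, and 1 fell, where 9.79% of all tested genes fell (edgeR, adjusted p under 0.05). In XX, 27 members fell, where 12.8% of all tested genes fell, and 1 rose, where 12.8% of all tested genes rose. The median change was 0.85 in XY and -0.42 in XX on the log2 scale, against 0.00 over all tested genes in both. All 27 members that fell in XX rose in XY, which is 51.9% of the members, whereas 2.15% of all tested genes did both. Markers of other cells moved over the same step, and their part in these changes was not tested. In XY summed germ cell markers were 13.05 to 17.7 CPM at E13.5 (3 of 9 genes at 1 CPM or more) and 53.7 to 87.5 CPM at E15.5 (8 of 9), and interstitial and stromal markers were 19.7 to 22.9 CPM (5 of 6) and 123 to 159 CPM (6 of 6). In XX summed germ cell markers were 18.5 to 31.9 CPM at E13.5 and 111 to 178 CPM at E15.5 (7 of 9 at both). Surface epithelium markers in XX were 306 to 327 and 462 to 476 CPM, and steroidogenic markers 189 to 205 and 293 to 322 CPM. Erythroid markers were 483 to 574 and 195 to 256 CPM, and immune markers 35.9 to 44.3 and 24.3 to 31.1 CPM. Interstitial and stromal markers, 327 to 422 and 399 to 563 CPM, overlapped, as did endothelial markers.

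In XY the rise reached every gene outside the origin recognition complex. Tk1 went from 39.7, 27.6 and 24.8 CPM at E13.5 to 84.3, 86.8 and 89.0 CPM at E15.5, a log2 change of 1.501 ± 0.197 (edgeR adjusted p = 1.32e-05). Mcm10 went from 29.4, 23.6 and 20.2 to 66.4, 64.7 and 67.5 CPM (1.44 ± 0.23 on the log2 scale, edgeR adjusted p = 9.80e-05). Pole rose by a log2 change of 1.44 ± 0.20 (edgeR adjusted p = 2.74e-05), Cdc6 by 1.24 ± 0.23 (edgeR adjusted p = 5.40e-04) and Mcm5 by 1.10 ± 0.11 (edgeR adjusted p = 5.09e-07). In each of these genes the 3 XY E15.5 libraries lay above the 3 XY E13.5 libraries. E2f1, which encodes an activating E2F factor, was low throughout. In XY it was at 4.37, 3.19 and 3.18 CPM at E13.5 and 7.25, 6.46 and 7.53 CPM at E15.5 (log2 change 0.99 ± 0.20, edgeR adjusted p = 9.29e-04). The 3 origin recognition genes that did not rise were Orc3, Orc4 and Orc5, and Orc5 fell from 60.8, 63.2 and 64.4 to 53.9, 51.8 and 49.4 CPM, a call that was lost without any of XY E13.5 replicate 2 or 3 or XY E15.5 replicate 2 or 3 (edgeR adjusted p from 0.064 to 0.0956). The Orc5 call was also lost in limma on TPM with no filter (limma adjusted p = 0.0524).

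In XX all 6 MCM2-7 genes and all 3 genes of chromatin upkeep fell, with median log2 changes of -0.81 and -0.99, and 2 of the 3 licensing genes fell, with a median of -0.83. Mcm2 went from 215, 183 and 188 CPM at E13.5 to 68.3, 86.8 and 58.4 CPM at E15.5, a log2 change of -1.46 ± 0.12 (edgeR adjusted p = 3.27e-08). Pold1 changed by -1.43 ± 0.17 (edgeR adjusted p = 6.93e-06), Uhrf1 by -1.32 ± 0.14 (edgeR adjusted p = 1.80e-06) and Orc1 by -1.26 ± 0.23 (edgeR adjusted p = 4.49e-04) on the log2 scale. Of the 6 clamp and loader genes 2 fell, and of the 9 polymerase and primase genes 4 did. Whether the roles differed from each other was not tested. Gmnn was at 25.6, 28.4 and 31.7 CPM at E13.5 and at 27.8, 28.9 and 29.8 CPM at E15.5, which overlap. Orc4 rose from 90.4, 97.4 and 102.9 to 118, 116 and 131 CPM (log2 change 0.33 ± 0.09, edgeR adjusted p = 0.00902), a call lost without XX E13.5 replicate 1 (0.0564) or XX E15.5 replicate 3 (0.0594). The Orc4 call was also lost in every limma fit on TPM (limma adjusted p from 0.0523 to 0.0803).

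**Figure D3:**
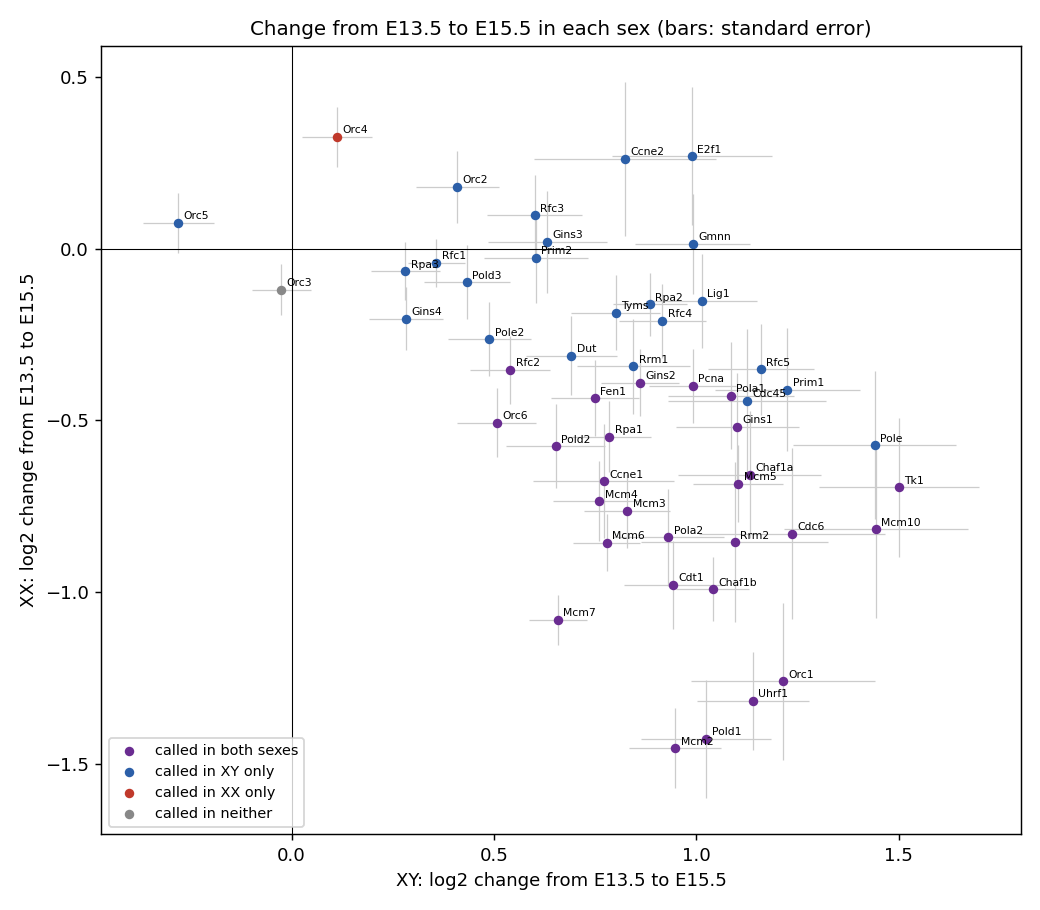
Log2 change from E13.5 to E15.5 of each member in XY (horizontal) and in XX (vertical), with standard errors as bars and colours for the sexes in which the change passed the test. Most members lie to the right of 0 and below it, that is, higher at E15.5 in XY and lower in XX; Orc5 and Orc3 lie left of 0.

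The difference between the sexes was itself tested. The change from E13.5 to E15.5 differed between XX and XY in 47 members, a contrast added after the values had been seen. It was more positive in XY for 46 of them, against 13.46% of all tested genes, and more positive in XX for 1, Orc5, against 12.4% of all tested genes (edgeR). For Uhrf1 the change in XX minus that in XY was -2.46 ± 0.20 on the log2 scale (edgeR adjusted p = 3.75e-08), and for Orc1 it was -2.48 ± 0.32 (edgeR adjusted p = 1.46e-05). Over the longer interval from E11.5 to E15.5, the change was more positive in XY for 39 members (27.0% of all tested genes) and in XX for 3, namely Orc4, Orc5 and Ccne1 (25.8% of all tested genes). Pold1 gave the largest such value, -3.76 ± 0.24 on the log2 scale (edgeR adjusted p = 6.55e-11). Mcm10 was at -3.01 ± 0.34 (edgeR adjusted p = 2.44e-07), with 24.5, 9.26 and 20.2 CPM in the XX E11.5 libraries. Without XX E11.5 replicates 1 and 3 the calls were 38 more positive in XY and 4 in XX, Pold1 was at -3.84 and Mcm10 at -2.06 (edgeR adjusted p = 2.89e-06). The joint test of a sex-by-stage interaction called 49 members, where 70.1% of all tested genes were called, and left out Orc2, Orc3 and Ccne2; without XX E11.5 replicates 1 and 3 it called 50.

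Measured against E11.5, 42 members were higher in XY at E15.5 (30.2% of all tested genes were). The 2 that were lower were Ccne1 and Orc4 (27.5% of all tested genes were lower). Summed interstitial and stromal markers in XY were 967 to 1653 CPM at E11.5 and 123 to 159 CPM at E15.5, and their part was not tested. In XX 31 members were lower at E15.5 than at E11.5 (31.1% of all tested genes were). In XX 4 members were higher, namely Orc4, Orc5, Gins3 and Rfc3 (28.3% of all tested genes were). Orc1 fell furthest, from 68.4, 38.8 and 70.4 CPM to 6.51, 6.60 and 7.57 CPM (log2 change -3.09 ± 0.23, edgeR adjusted p = 1.49e-09). Pold1 fell by 2.64 ± 0.18 on the log2 scale (edgeR adjusted p = 2.78e-10) and Mcm2 by 1.96 ± 0.12 (edgeR adjusted p = 7.56e-11). Rrm2 fell by 1.99 ± 0.24 (edgeR adjusted p = 7.53e-07), and by 1.09 when XX E11.5 replicates 1 and 3 were left out. The same setting gave 28 members lower and 2 higher in XX at E15.5, with log2 changes of -2.54 for Orc1, -2.77 for Pold1 and -1.85 for Mcm2.

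The group with the highest mean CPM was XY E15.5 for 42 members (15.7% of all tested genes had their highest mean there), and the group with the lowest mean was XX E15.5 for 31 (20.7% of all tested genes). By the deposited TPM, which also scales by transcript length, these numbers were 39 and 34. Compared between genes on the TPM scale, Rfc2 was the most abundant member at E15.5 in both sexes, with a mean level of 241 TPM in XX and 279.9 TPM in XY. Mcm6 had a mean level of 107 TPM in XX and 266 TPM in XY, Mcm5 of 32.4 and 158 TPM, and E2f1 was the least abundant member in both, at 2.67 and 3.86 TPM.

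**Figure D4:**
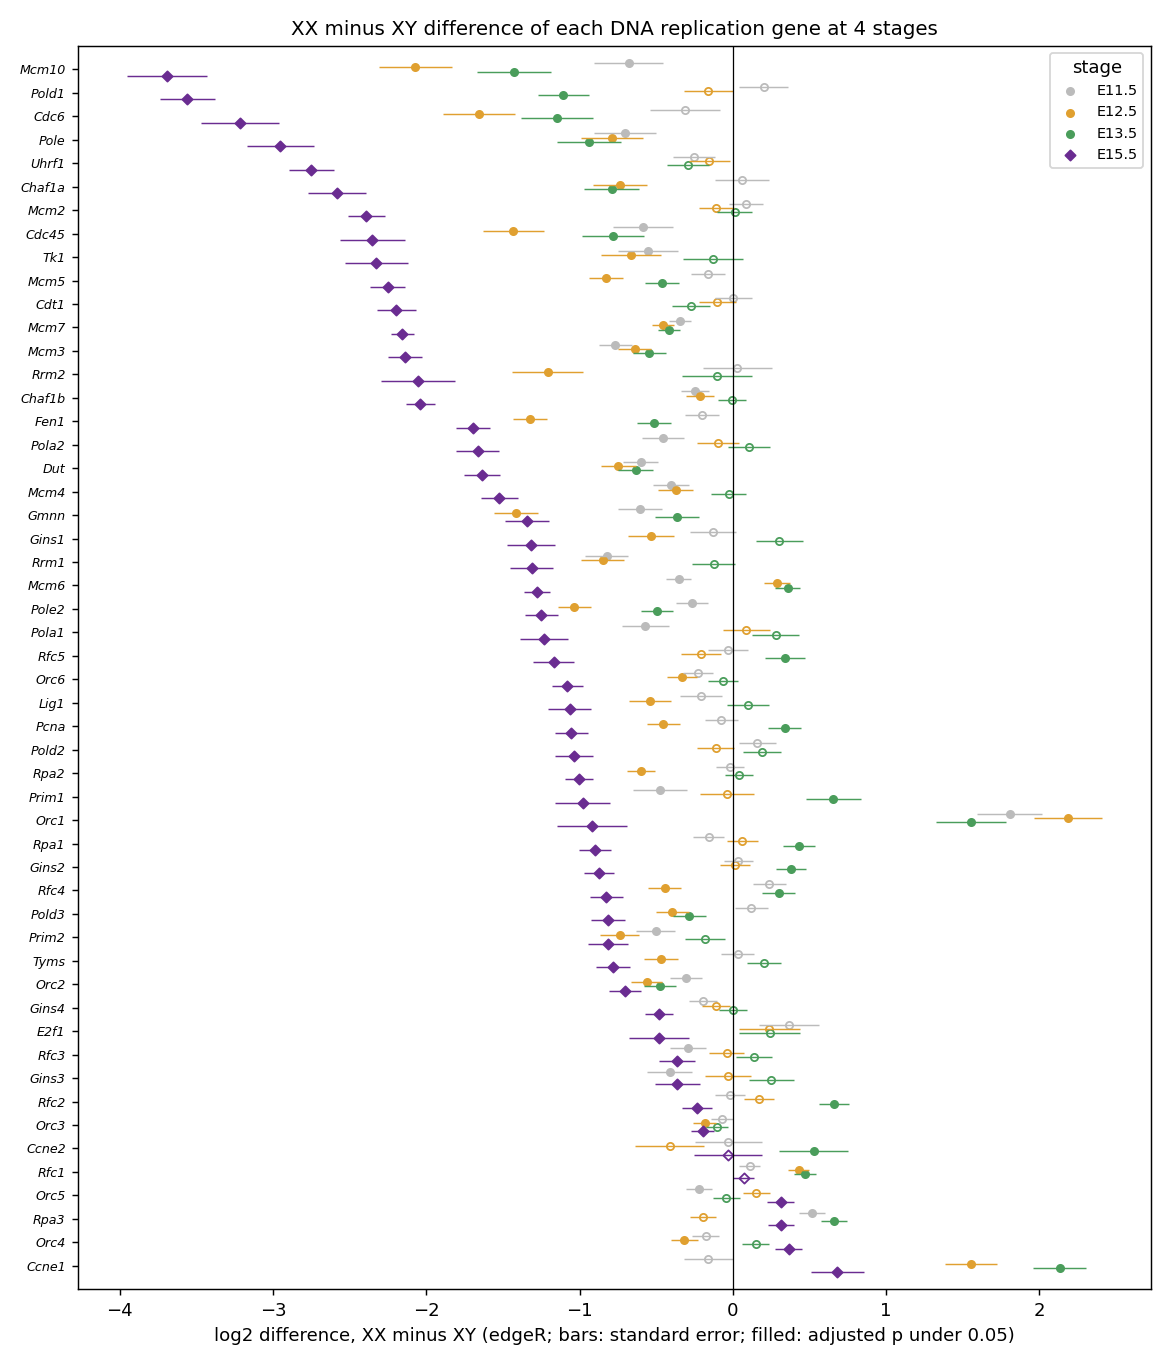
Log2 difference between XX and XY for each member at the 4 stages, with standard errors as bars; filled symbols passed an adjusted p under 0.05 in edgeR. Members are ordered by their E15.5 difference, and the E15.5 symbols lie left of the other stages for most of them, but not for Gmnn or for the genes at the bottom such as Ccne1 and Orc4.

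Before E15.5 fewer members differed between the sexes, mostly toward XY at E11.5 and E12.5 and in both directions at E13.5. At E11.5, 21 members were higher in XY (20.6% of all tested genes were) and 2, Orc1 and Rpa3, were higher in XX (21.4% of all tested genes were), with a median difference of -0.20. Mcm3 was at 127, 107 and 125 CPM in XX, compared with 194, 217 and 198 CPM in XY (log2 difference -0.77 ± 0.11, edgeR adjusted p = 8.10e-06). Rrm1, the large subunit of ribonucleotide reductase, was at 225, 133 and 212 CPM in XX, compared with 350.1, 302 and 357 CPM in XY (log2 difference -0.82 ± 0.14, edgeR adjusted p = 7.02e-05), and XX replicate 2 was the lowest. Without XX replicates 1 and 3 the calls were 22 higher in XY and 3 higher in XX, and the difference was -1.36 for Rrm1 and -0.95 for Mcm3. Without XY E11.5 replicate 3 the calls at this stage were 2 higher in XX and 11 higher in XY, and with a fit to the 6 E11.5 libraries alone they were 2 and 4.

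At E12.5, 29 members were higher in XY (31.5% of all tested genes were) and 4, Orc1, Ccne1, Rfc1 and Mcm6, were higher in XX (30.5% of all tested genes were). Mcm10 was at 8.51, 9.50 and 8.39 CPM in XX, compared with 27.3, 42.5 and 41.1 CPM in XY (log2 difference -2.07 ± 0.24, edgeR adjusted p = 1.89e-07), and Cdc6 differed by -1.66 ± 0.24 (edgeR adjusted p = 4.02e-06). XY E12.5 replicate 1 was lower than the other XY libraries in both. On deposited TPM, limma called 16 higher in XY and 6 higher in XX. At E13.5 the calls were nearly even, with 15 higher in XY (33.3% of all tested genes were) and 13 higher in XX (32.8% of all tested genes were), and a filter of at least 10 counts in every library turned this to 13 and 18. The members higher in XX at E13.5 included Rfc1, Rfc2, Rfc4 and Rfc5 of the clamp loader. Rfc2 was at 184, 179.7 and 174 CPM in XX, compared with 118, 116 and 106 CPM in XY (log2 difference 0.66 ± 0.10, edgeR adjusted p = 6.18e-06). Pold1 and Mcm10 were already lower in XX at E13.5, by log2 differences of -1.10 ± 0.16 (edgeR adjusted p = 5.09e-06) and -1.43 ± 0.24 (edgeR adjusted p = 2.38e-05).

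The calls of the early steps within a sex depended on the libraries and the scaling. From E11.5 to E12.5 in XX, 14 members fell (17.3% of all tested genes did) and 4 rose (16.7% of all tested genes did). The largest fall was in Rrm2, from 319, 121 and 266 CPM to 118, 102 and 83.4 CPM (log2 change -1.22 ± 0.23, edgeR adjusted p = 5.33e-04), but XX E11.5 replicate 2 was close to the E12.5 libraries. Without XX E11.5 replicates 1 and 3 the change of Rrm2 was -0.25 (edgeR adjusted p = 0.417) and the calls were 6 lower and 3 higher, and a fit to the 6 libraries alone called 3 lower and 0 higher. On deposited TPM, limma called 10 lower and 7 higher.

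From E12.5 to E13.5 in XX, 9 members fell (17.4% of all tested genes did) and 11 rose (14.2% of all tested genes did). Pold1 fell from 111, 112 and 89.6 CPM to 51.8, 32.4 and 41.8 CPM (log2 change -1.31 ± 0.16, edgeR adjusted p = 9.57e-06) while Pold2 and Pold3 did not pass the test. Orc1 fell by 1.41 ± 0.22 on the log2 scale (edgeR adjusted p = 6.38e-05). The members that rose included Pcna, Rpa2, Rpa3, Fen1, Tyms and Gmnn. This split did not hold on deposited TPM, where limma called 14 lower and 2 higher, and without a count filter it was 8 lower and 6 higher. The number called also fell from 20 to 13, 9, 13 and 11 without XX E12.5 replicate 1 or 2 or XX E13.5 replicate 2 or 3.

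In XY, 13 members rose from E11.5 to E12.5 (27.1% of all tested genes did) and 7 fell (24.8% of all tested genes did), but limma on deposited TPM called 1 higher and 17 lower, a filter of at least 10 counts in every library gave 4 higher and 13 lower, and scaling by DESeq2 size factors gave 10 higher and 9 lower. The calls were 2 higher and 11 lower without XY E11.5 replicate 1, and 2 higher and 10 lower without XY E12.5 replicate 2. Cell markers moved over this step as well. In XY, summed interstitial and stromal markers were 967 to 1653 CPM at E11.5 and 42.9 to 48.1 CPM at E12.5. Surface epithelium markers were 27.0 to 83.6 and 1.47 to 1.91 CPM, and Sertoli markers 1477 to 2521 and 7649 to 8116 CPM. The part of these shifts in the changes of members was not tested. From E12.5 to E13.5, 18 members fell (8.62% of all tested genes did) and 1, Orc5, rose (8.02% of all tested genes did), with a median change of -0.33. Rrm2 went from 192, 270.2 and 238 CPM to 135, 112 and 99.6 CPM (log2 change -1.02 ± 0.23, edgeR adjusted p = 0.00434), without overlap. The number that fell rested on single libraries: leaving out replicate 2 at E12.5 or replicate 3 at E13.5 gave 4, leaving out replicate 3 at E12.5 gave 6, leaving out replicate 2 at E13.5 gave 7, and leaving out replicate 1 at E12.5 gave 28.

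Orc1 and, within XY, Ccne1 followed courses of their own. Orc1, an ATP-binding subunit of the origin recognition complex, was at 68.4, 38.8 and 70.4 CPM in XX and 16.9, 12.96 and 20.8 CPM in XY at E11.5. It was higher in XX at E11.5, E12.5 and E13.5 by log2 differences of 1.81 ± 0.21 (edgeR adjusted p = 8.74e-07), 2.19 ± 0.22 (2.65e-08) and 1.56 ± 0.23 (4.09e-06). It was lower in XX at E15.5, by -0.92 ± 0.23 (edgeR adjusted p = 0.00124). The XX and XY libraries did not overlap at any of the 4 stages. Without XX E11.5 replicates 1 and 3 the E11.5 difference was 1.18 (edgeR adjusted p = 3.59e-04). Orc1 overlaps exons of Gm12743 on the other strand, so part of its counts may belong to that gene.

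Ccne1 overlapped between the sexes at E11.5, with 37.6, 29.7 and 36.6 CPM in XX and 29.97, 39.5 and 46.4 CPM in XY. In XY it then fell to 8.41, 7.59 and 9.14 CPM at E12.5 (log2 change -2.20 ± 0.17, edgeR adjusted p = 1.09e-09), while most members did not fall. The fall of XY stromal markers over this step is given above, and its part in the Ccne1 change was not tested. The XX minus XY difference was 1.55 ± 0.17 at E12.5 (edgeR adjusted p = 9.57e-08) and 2.13 ± 0.17 at E13.5 (edgeR adjusted p = 8.76e-10) on the log2 scale. From E13.5 to E15.5 Ccne1 in XY rose by 0.77 ± 0.17 (edgeR adjusted p = 0.00274), as other members did. In XX it fell over that step from 29.9, 28.5 and 35.6 CPM to 21.5, 17.1 and 20.1 CPM, as most members did. Mcm6 was higher in XX at E12.5, with 496, 466 and 441 CPM against 344, 404 and 401 CPM (log2 difference 0.29 ± 0.08, edgeR adjusted p = 0.00457; 0.49 in limma on TPM), which set it apart from the other 5 subunits of its ring, of which none was higher in XX.

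Members were compared with the mean of the other members over the 24 libraries, which share sexes, stages and sequencing. The median Pearson r was 0.808, with 29 members over 0.8. The closest were Tk1 (0.955), Gins1 (0.946), Orc6 (0.932), Chaf1b (0.931) and Mcm5 (0.93), and the 5 with negative values were Orc5 (-0.565), Rpa3 (-0.224), Ccne1 (-0.189), Rfc1 (-0.144) and Orc4 (-0.117). Over the 12 libraries of each sex the median r was 0.899 in XY and 0.635 in XX. Rfc1 was at 0.856 within XY and -0.248 within XX, and Ccne1 was at 0.952 within XX and 0.126 within XY.

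The members with and without an E2F word covered overlapping ranges of response. The median XX minus XY difference at E15.5 was -1.26 for the 16 members with an 8-letter word (-3.56 to -0.20) and -1.05 for the 27 without (-3.69 to 0.68), and the median XY change from E13.5 to E15.5 was 0.89 in both. The median XX change over that step was -0.72 with a word (-1.43 to 0.10) and -0.41 without (-1.46 to 0.33). With the shorter cores it was -0.43 with and -0.47 without, and none of these differences was tested. Mcm10, Mcm2 and Tk1 had no such word in their windows, and Orc3, with a word and a log2 difference of -0.20 at E15.5, is the member with a word at the upper end of its range.

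Other genes of the pathway moved in the same direction. Of 57 further replication genes, 44 were higher in XY at E15.5 and 5 in XX, with a median log2 difference of -0.97; the shares over all tested genes given above were 34.4% and 34.9%. The smallest p-values were those of Chtf18 (-3.75 ± 0.20), a subunit of an alternative clamp loader, Dnmt1 (-2.76 ± 0.17), the maintenance DNA methyltransferase, and Shmt1 (-2.55 ± 0.16), an enzyme of folate metabolism (edgeR adjusted p = 8.49e-13, 5.01e-12 and 1.53e-11). The 5 higher in XX were Samhd1, an enzyme that breaks down deoxynucleotides, Pold4, Asf1a, Mcmbp and Rad1. In the step from E13.5 to E15.5, 38 of the 57 rose and 0 fell in XY, where 11.51% of all tested genes rose and 9.79% fell. In XX 23 fell and 8 rose, where 12.8% of all tested genes went each way, a share that the 8 of 57 were close to. Another list of 21 tested genes held E2F and RB family genes, S-phase kinases and other regulators of the cell cycle. Of these, 13 were higher in XY at E15.5 and 3 in XX. Among them were the other regulators Skp2 (-1.03 ± 0.09, edgeR adjusted p = 8.17e-10) and Fbxo5 (-2.43 ± 0.24, 1.27e-08). In the other direction was Tfdp2 (0.48 ± 0.07, 4.17e-06).

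Genes of mitosis passed the test in XY but not in XX over the last step. All 22 were higher in XY at E15.5, where 34.4% of all tested genes were, with a median log2 difference of -2.78. All 22 rose in XY from E13.5 to E15.5, where 11.51% of all tested genes rose. In XX 0 of 22 passed the edgeR test from E13.5 to E15.5, with 1 at an unadjusted p under 0.05 and 1 called by DESeq2, and their log2 changes ran from -0.47 to 0.92 with a median of -0.11. A fit to the 6 libraries of that step alone called 7 lower and 3 higher. The mean log2(CPM + 1) of the 22 genes was 4.38 to 4.64 at E13.5 and 4.37 to 4.55 at E15.5 in XX, while that of the 52 replication genes was 5.76 to 5.83 at E13.5 and 5.35 to 5.37 at E15.5. Whether the difference between these lists exceeds the spread was not tested. At E11.5 the mitosis mean in XX was 6.02 and 5.88 in replicates 1 and 3 and 4.57 in replicate 2.

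**Figure D5:**
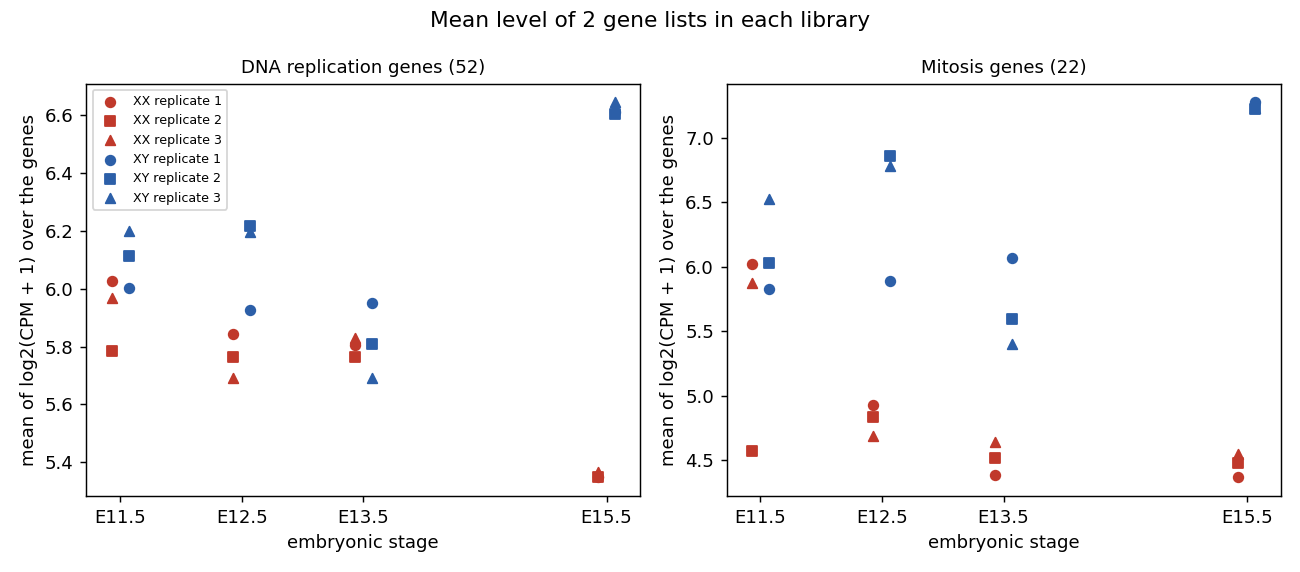
Mean of log2(CPM + 1) over the 52 replication genes (left) and over 22 mitosis genes (right) in each library by stage; the vertical axes differ and do not start at 0. In XX the replication mean falls from 5.76 to 5.83 at E13.5 to 5.35 to 5.37 at E15.5 while the mitosis means of the same libraries overlap, and XX E11.5 replicate 2 lies below replicates 1 and 3 in both.

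Several members share exon sequence with another gene, and the sources used here do not say whether strand was used in counting. Exons of 16 members overlap a gene on the other strand and exons of 4 overlap a gene on the same strand in GENCODE M21, and Pcna and Tyms have named pseudogenes. Among the genes with values of their own above, the exon overlaps include Orc1, Orc4, Orc5, Orc6, Rfc2, Pole, Pole2, Fen1, Tk1, Chaf1a and Ccne2. Others, among them Mcm7 and Cdc45, enter above only through counts and ranges. Mcm2, Mcm5, Mcm6, Mcm10, Cdc6, Pold1, Rrm2, Uhrf1 and Ccne1 have no such overlap.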

How the data were processed

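RNA of sorted cells was sequenced from 24 libraries in 8 groups of 3, after low-input amplification of polyadenylated RNA with no molecular identifiers described, so equal reads need not be separate molecules. The authors deposited estimated counts per gene, of which 17.5% of values were not whole; they were rounded to whole numbers. The authors also deposited TPM values, whose sum over the genes in the table was 0.939 to 0.962 of the full TPM total in each library. The genome build is mm10 per the submitters' processing notes; the aligner, the counting tool and its use of strand are not given in the sources used here. Depth was 11275277 to 37256871 counts per library.

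Counts were filtered with filterByExpr, scaled by TMM and fitted in 1 model of 8 groups with the robust quasi-likelihood test of edgeR 4.0.16 in R 4.3.3 (16 residual degrees of freedom, common biological coefficient of variation 17.4%). P-values were adjusted by Benjamini-Hochberg over all 16190 genes tested, with a threshold of 0.05. CPM values use the TMM-scaled totals. The steps were tested on simulated data. Alternatives were DESeq2 1.42.0 and its size factors, limma 3.58.1 on log2(TPM + 1) or log2(TPM + 0.1), other count filters, a replicate block, fits to the compared libraries alone and leaving out each library. Added after the data were seen were fits without E11.5 libraries or without XX E11.5 replicates 1 and 3, TPM rescaled by TMM, and the contrast of the E13.5 to E15.5 changes. The members and lists were chosen with earlier results of these data known. Any member could be named; of other lists, the 3 genes with the smallest p-values in each direction and those going against the list. Lin54 and Hbb-bs were not analysed here.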

Additional observations from a re-analysis of the deposited data

Results flagged for a closer look

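These results were picked out because a test of the difference itself found that the XX and XY cells changed differently with stage. The change from E11.5 to E15.5 differed between the sexes for 42 of the 52 members, where 27.0% of all tested genes were more positive in XY and 25.8% in XX (edgeR, adjusted p under 0.05). The change from E13.5 to E15.5, a contrast added after the data were seen, differed for 47, where the shares over all tested genes were 13.46% and 12.4%. The joint sex-by-stage test called 49, where 70.1% of all tested genes were called.

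For the change from E11.5 to E15.5 in XX minus that in XY, the log2 value was -3.76 for Pold1, -3.01 for Mcm10 and 0.84 for Ccne1, and without XX E11.5 replicates 1 and 3 it was -3.84, -2.06 and 1.06. For the change from E13.5 to E15.5 it was -2.46 for Uhrf1 and -2.48 for Orc1.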

How the results depend on the processing

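Of 36 alternatives, 24 left out 1 library each. The XX minus XY counts at E13.5 and E15.5, the changes from E13.5 to E15.5 and from E11.5 to E15.5 in each sex and the tests of the difference between sexes stayed within 1.5 times in all that were run. With only the libraries compared, the members called were 6 for XX minus XY at E11.5 and 3 for XX from E11.5 to E12.5, and without XX E11.5 replicates 1 and 3 together the latter was 9. With limma on TPM and no filter they were 20 for XX minus XY at E12.5, 11 for XX from E12.5 to E13.5 and 6 for XY from E12.5 to E13.5. For that last step limma called 11 with either pseudocount and 12 on TPM rescaled by TMM. The cause was not tested. Leaving out single libraries gave 13 to 24 for XX minus XY at E11.5, 9 to 21 for XX from E12.5 to E13.5, 12 to 23 for XY from E11.5 to E12.5 and 4 to 28 for XY from E12.5 to E13.5. Deposited TPM moved the median of all genes to 0.14 for XX minus XY at E12.5, -0.17 for XX from E12.5 to E13.5 and -0.13 for XY from E11.5 to E12.5; relative to it the members' medians were -0.24, 0.07 and -0.07.

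Replicate numbers did not pair the samples: no comparison had all 3 correlations over 0.1, the highest set being 0.0949, 0.0729 and 0.279 at E11.5, where 2 of 3 libraries correlated best with their own number. With the replicate block the counts were 20, 32, 27 and 49 for XX minus XY at the 4 stages, 27 for XX and 50 for XY from E13.5 to E15.5, and 46 for the difference of those changes.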

Other observations

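Genes that hold back or start the cell cycle were measured beside the replication genes. Of 11 tested CDK inhibitors, D cyclins and their kinases, 5 were higher in XX and 4 in XY at E15.5 (edgeR, adjusted p under 0.05), where 34.9% and 34.4% of all tested genes were. CDK inhibitors went both ways. The 4 higher in XY were Ccnd2, Ccnd3 and 2 inhibitor genes, Cdkn2b and Cdkn2c. Their log2 differences were -2.05 ± 0.53 for Cdkn2b (edgeR adjusted p = 0.00176) and -2.02 ± 0.85 for Cdkn2c (edgeR adjusted p = 0.0401). Cdkn1b, which encodes the CDK inhibitor p27, was higher in XX by 4.30 ± 0.32 on the log2 scale (SE; edgeR adjusted p = 2.74e-10), Cdkn1a, which encodes p21, by 2.95 ± 0.17 (edgeR adjusted p = 2.66e-12) and the kinase gene Cdk6 by 2.76 ± 0.15 (edgeR adjusted p = 9.15e-13). From E13.5 to E15.5 in XX, Cdkn1a changed by -0.996 ± 0.149 (edgeR adjusted p = 7.02e-05) and Cdk6 by 0.85 ± 0.14 (edgeR adjusted p = 1.69e-04). Ccnd2, a cyclin D gene, rose in XY by 1.67 ± 0.10 over that step (edgeR adjusted p = 3.18e-10). Another cyclin D gene, Ccnd1, went the other way in XY, by -1.90 ± 0.16 (edgeR adjusted p = 1.02e-07). Cdkn1a rose in XY by 0.82 ± 0.19 (edgeR adjusted p = 0.00268).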
